A study of Mus musculus with 12 samples.

Results

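The genes F13a1, Ms4a4a, Siglec1, Ptprc, Cd2 and Cd52, all of immune cells, were followed through 12 libraries of ribosome-bound RNA from the mouse hypothalamus. They are 6 of the 5764 genes in the deposited table. They were taken by name, as genes of border macrophages (F13a1, Ms4a4a, Siglec1) and of lymphocytes and leukocytes in general (Ptprc, Cd2, Cd52), to see whether both kinds of gene occur in the same libraries and how they compare between food-sensing and control mice. The 6 were chosen by their measured CPM in the SENS and NEO libraries, known from an earlier look at this table, so their own group values and their co-occurrence are a description and carry no test.

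All mice were POMCRiboTag animals, in which a tagged ribosomal protein lets RNA be pulled down from neurons of the pro-opiomelanocortin (POMC) lineage with an antibody against the HA tag. After a fast of 16 h and 1 h to settle in the test room, every mouse had a 10 min exposure in its home cage at about zeitgeber time 6 h. Cages held pairs or triplets of mice. The NEO group (n = 6 libraries) was shown wooden sticks inside wire mesh, a nonedible object, and the SENS group (n = 6) chow inside wire mesh that could be seen and smelled but not eaten. Arcuate-enriched tissue was dissected. The sources used here do not give the Cre driver, age or sex of the mice. Whether 1 library stands for 1 mouse is not stated either, so the p-values below measure the spread between libraries alone, and that spread may be technical. No library of unbound or untagged RNA was analysed here, so RNA of POMC neurons and RNA of other cells that came down with the beads cannot be told apart. The 5764 genes of the table include none of the 16 listed genes of POMC neurons and none of the 22 of microglia. The labelled cell type could therefore not be checked against its markers. The median gene of the table had 9 reads over the 12 libraries.

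Border macrophages live in the meninges, around blood vessels and in the choroid plexus. Unlike microglia they sit outside the brain tissue proper, and they take up debris and sample the fluid that bathes the brain. F13a1 encodes the A subunit of coagulation factor XIII, a transglutaminase that cross-links fibrin and is also made by platelets and monocytes. Ms4a4a encodes a membrane protein with 4 membrane-spanning segments found on macrophages, and Siglec1 encodes sialoadhesin (CD169), a macrophage receptor for sialic acid. Ptprc encodes CD45, a receptor tyrosine phosphatase on all nucleated blood cells, so it marks macrophages and lymphocytes alike. Cd2 encodes an adhesion receptor of T and NK lymphocytes that binds CD48, and Cd52 encodes a short glycoprotein anchored by lipid in the membrane of lymphocytes and some myeloid cells.

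In GRCm38 coordinates from RefSeq, F13a1 lies on chromosome 13 (36867178 to 37050244), Ms4a4a on chromosome 19 (11375488 to 11392915) and Siglec1 on chromosome 2 (131067801 to 131086778). Ptprc lies on chromosome 1 (138062859 to 138175756), Cd2 on chromosome 3 (101275908 to 101287939) and Cd52 on chromosome 4 (134093538 to 134095073). All 6 are annotated as protein-coding. F13a1 overlaps 2 annotated long noncoding RNA genes, Gm30489 and Gm30240, which were not analysed here, and the assignment of reads there is not stated. The other 5 genes overlap no annotated gene.

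Upstream sequence is shown for the 3 of these genes whose promoters RefSeq's table (GRCm38.p6) holds, because myeloid genes are known for promoters bound by PU.1, a transcription factor of macrophages and B cells. Each sequence is the 250 bases before a transcript start, the first that the table lists for the gene. For F13a1 and Ms4a4a this is the outer end of the annotated gene, and for Ptprc it is an inner start, 451 bases into the annotated gene, so that window lies within the gene. Capitals mark the motif GAGGAA, a form of the site bound by PU.1, searched on both strands. Shorter or differing forms of the site were not searched.
F13a1 (chr13:37050245-37050494, minus strand): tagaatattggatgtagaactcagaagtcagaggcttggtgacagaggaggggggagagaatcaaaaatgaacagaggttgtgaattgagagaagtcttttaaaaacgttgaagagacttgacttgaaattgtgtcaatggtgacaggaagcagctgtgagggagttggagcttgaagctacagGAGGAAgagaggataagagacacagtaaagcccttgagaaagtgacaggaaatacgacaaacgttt
Ms4a4a (chr19:11375238-11375487, plus strand): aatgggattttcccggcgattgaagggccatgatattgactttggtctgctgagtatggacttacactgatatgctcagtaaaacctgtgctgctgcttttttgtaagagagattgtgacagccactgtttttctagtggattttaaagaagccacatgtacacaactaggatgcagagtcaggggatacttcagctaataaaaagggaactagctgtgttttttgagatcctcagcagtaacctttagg
Ptprc (chr1:138175306-138175555, minus strand): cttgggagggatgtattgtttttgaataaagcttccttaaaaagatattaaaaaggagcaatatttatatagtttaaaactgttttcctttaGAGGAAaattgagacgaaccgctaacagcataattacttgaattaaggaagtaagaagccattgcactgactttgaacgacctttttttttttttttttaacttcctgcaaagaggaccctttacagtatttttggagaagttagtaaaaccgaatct
The motif occurs once in the F13a1 window, beginning 66 bases before the start. It also occurs once in the Ptprc window, beginning 158 bases before the inner start. Both matches are on the strand of the gene. These letters are not in the Ms4a4a window. Of the 27025 genes with such a window (the first listed), 23.1% hold the motif on either strand. So do 38.7% of the 124 windows of leukocyte genes listed below and measured here. A match describes the letters and does not show that a factor binds there.

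The values are CPM, in which the reads of a gene are scaled to a fixed total over the listed genes. The NEO libraries held between 6901 and 11139 such reads (mean 8509 ± 1749, SD, n = 6) and the SENS libraries between 8619 and 18299 (13104 ± 3466; exact permutation test, two-sided, p = 0.0130). A read was therefore worth between 54.6 and 145 CPM, so single libraries rest on few reads. A gene with 0 reads in a library could still be present at up to 3 reads, or between 164 and 435 CPM. All values of the 6 genes came out as whole reads.

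F13a1 had 2, 0, 0, 0, 0 and 8 reads in NEO libraries 1 to 6 and 15, 32, 13, 4, 14 and 13 reads in SENS libraries 1 to 6. It was above 0 in 2 of 6 NEO and in 6 of 6 SENS libraries. Of the 5141 genes tested, 0.195% were above 0 in all 6 SENS and at most 2 NEO libraries. F13a1 was chosen by these counts, and the pattern was worded after them. The median gene had 9 reads, against 101 for F13a1, and the SENS libraries were deeper. That share therefore does not measure how rare the pattern is. In NEO the lowest level was 0, the median 0 and the highest 1033 CPM. In SENS the lowest was 372, the median 1069 and the highest 2053 CPM. NEO 6 was the library that made the groups overlap, since its level was above those of SENS 3, SENS 4 and SENS 6. Mean F13a1 was 205 ± 413 CPM across NEO against 1169 ± 631 CPM across SENS, SD over 6 libraries each, 5.71-fold higher in SENS. Pooled over a group, 10 NEO reads gave 196 CPM (95% exact Poisson interval 93.9 to 360.2) and 91 SENS reads gave 1157 CPM (932 to 1421). These intervals cover counting error only, because reads without molecular identifiers are not independent molecules. In this bulk RNA fewer macrophages and less RNA per macrophage cannot be told apart, and the same holds for every gene below.

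Ms4a4a had 2 reads in NEO, both in NEO 5, and 40 in SENS, with 3, 3, 9, 8, 0 and 17 in libraries 1 to 6. Its level in NEO 5 was 289.8 CPM, above SENS 2 (192 CPM) and SENS 5 (0), and SENS 6 was the highest at 929 CPM. The median was 0 in NEO and 511 CPM in SENS. Mean Ms4a4a was 48.3 ± 118 CPM among NEO and 482 ± 358 CPM among SENS libraries (SD, n = 6 each). The pooled ratio was 12.99, and with only 2 NEO reads its 95% counting interval ran from 3.37 to 111.

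Siglec1 had no read in 51054 NEO reads and 13 in SENS, 5 in SENS 2 and 8 in SENS 3. These were 321 and 599.8 CPM, and the 4 other SENS libraries were at 0. Siglec1 thus appeared in 2 of 12 libraries, both of which also held F13a1, Ms4a4a, Ptprc, Cd2 and Cd52. With the limit of 3 reads over the group, the NEO total allows up to 58.8 CPM. The exact Poisson interval, as given for F13a1, reaches higher in NEO, to 72.3 CPM. The pooled SENS level of 165 CPM was 2.81 times the limit of 3 reads. Without SENS 3, where 5 reads remained, it was 76.6 CPM. That was 1.30 times the limit of 3 reads and only just above the Poisson bound.

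Ptprc had the most reads of the 6 genes, 129 in all. NEO libraries 1 to 6 had 0, 3, 0, 2, 6 and 11 reads, and SENS libraries 13, 9, 31, 9, 45 and 0. The NEO levels ran from 0 to 1420 CPM with a median of 261 CPM, and the SENS levels from 0 to 3737 CPM with a median of 1173 CPM. The groups overlapped widely, with SENS 6 at 0 in spite of the deepest library. Mean Ptprc was 469 ± 564 CPM (NEO) and 1498 ± 1358 CPM (SENS), SD over 6 libraries each, 3.19-fold higher in SENS.

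Cd2 was the gene of the 6 with a lower mean in SENS. NEO libraries 1 to 6 had 4, 2, 9, 14, 4 and 9 reads, and SENS libraries 0, 12, 2, 7, 7 and 0. The NEO levels ran from 179.5 to 1776 CPM (median 871) and the SENS levels from 0 to 769.7 CPM (median 366). NEO 3, NEO 4 and NEO 6 lay above every SENS library, and the other NEO libraries lay among the SENS ones. Mean Cd2 was 891 ± 607 CPM across NEO against 359 ± 348 CPM across SENS (SD, n = 6 each), 2.48-fold lower in SENS. The pooled ratio was 0.433, with a counting interval from 0.258 to 0.715. Like the intervals of the other genes, it covers counting error only and is not a test of the groups.

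Cd52 had 4, 2, 8, 11, 7 and 5 reads in NEO and 0, 4, 25, 14, 6 and 29 in SENS. It was the most widely present of the 6, above 0 in 11 of 12 libraries, and SENS 1 was the exception. NEO levels ran from 179.5 to 1395 CPM (median 829.96) and SENS levels from 0 to 1874 CPM (median 901). Mean Cd52 was 791 ± 464 CPM among NEO and 919.6 ± 769.9 CPM among SENS libraries (SD, n = 6 each). The difference of 129 CPM was smaller than either SD. The pooled ratio was 1.37, with a counting interval from 0.914 to 2.08.

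**Figure D1:**
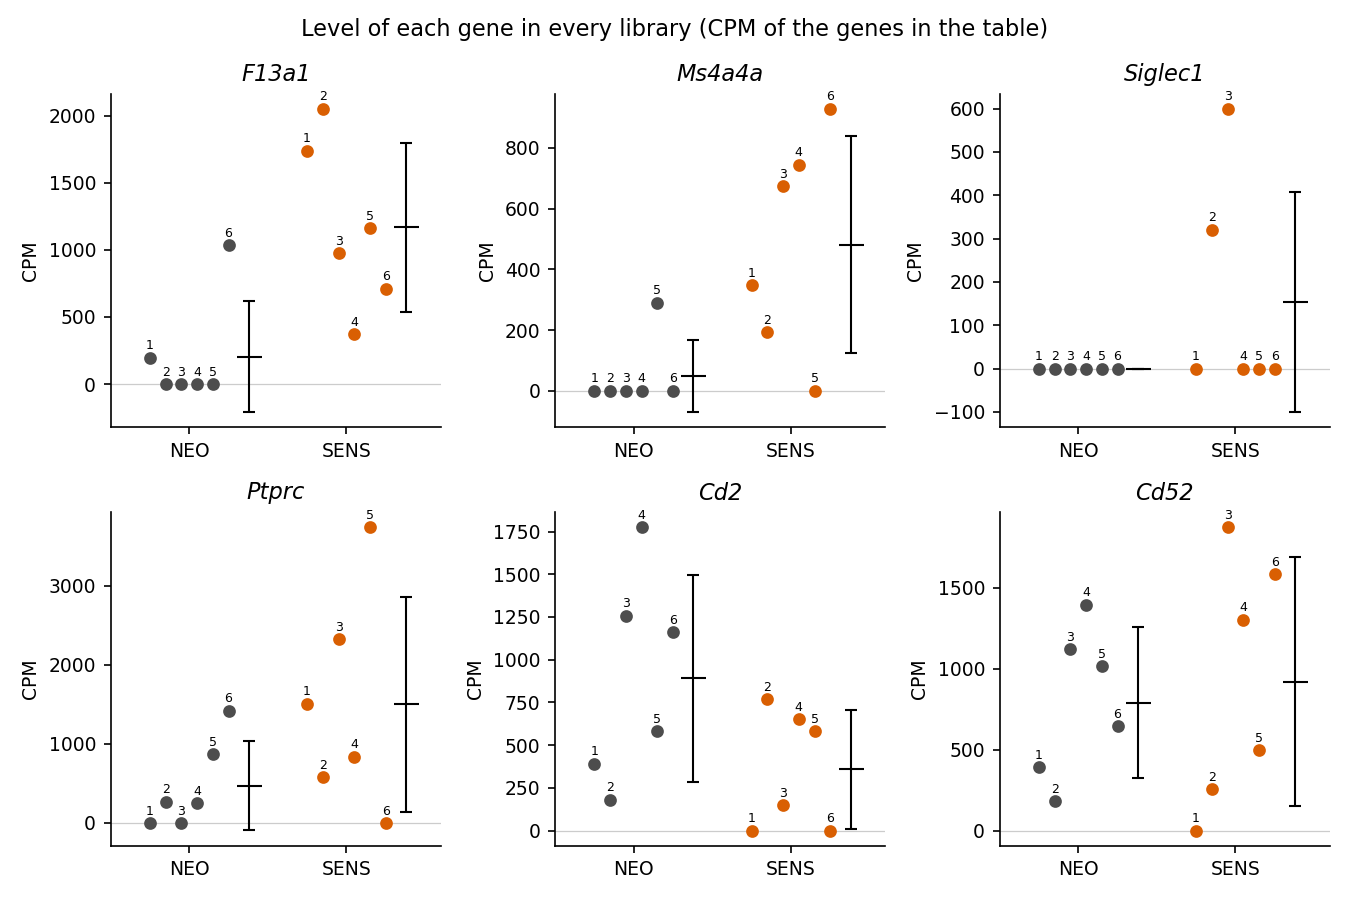
CPM of each of the 6 genes (y axis) in the 6 NEO and 6 SENS libraries, 1 point per library with its replicate number, beside the mean and SD of the group. F13a1 is above 0 in all 6 SENS libraries and in 2 NEO libraries, while Cd2 is above 0 in all 6 NEO libraries and in 4 SENS libraries.

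On the log2(CPM + 1) scale of the limma fit, the differences between SENS and NEO were 7.05 (SE 2.04) for F13a1, 6.11 (SE 2.73) for Ms4a4a and 2.93 (SE 1.77) for Siglec1. They were 2.70 (SE 1.73) for Ptprc, −3.53 (SE 1.52) for Cd2 and −1.20 (SE 1.11) for Cd52. These differences depend on how values of 0 are treated. With a pseudocount of 100 CPM in place of 1, F13a1 came to 2.65 and Ms4a4a to 1.86. Cd52 was lower in SENS on this scale and higher by its mean CPM, and without SENS 1, the library at 0, its log2 difference was 0.43. All 6 genes passed the filter of a mean of at least 1 CPM, as did 5141 of the 5764 genes of the table. The log2 difference was above 0 for 4 of the 6, as for 57% of the 5141 genes tested, and the mean CPM was higher in SENS for 5 of the 6, as for 55.2% of genes. Both counts come from the contrast by which the genes were known. Over all genes limma called 0 (0%) at an adjusted p under 0.05. An unadjusted p under 0.05 was found for 189 (3.68%), with 1.83% of all genes higher and 1.85% lower in SENS. With so few reads per gene, 0 calls do not show that the groups are alike.

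The summed macrophage genes did not overlap between the groups. Their summed level was 195, 0, 0, 0, 289.8 and 1033 CPM in NEO libraries 1 to 6 and 2088, 2566, 2249, 1117, 1163 and 1639 CPM in SENS libraries 1 to 6. Every SENS library was thus above every NEO library, which held for 0.0195% of single genes tested (1 gene) and for none of the 6 genes alone. The 3 genes were chosen by their levels in these groups, and a sum of 3 is unlike a single gene. That share therefore does not measure how rare the separation is. Every NEO library above every SENS library held for 0.0778% of genes, Cd2 not among them. The margin was small, since NEO 6 had 8 reads of these genes and SENS 4 had 12. The mean was 253 ± 401 CPM (NEO) and 1804 ± 595 CPM (SENS) (SD, n = 6 each), from 12 and 144 reads. With each library left out in turn, the difference of 1551 CPM lay between 1398 and 1707 CPM. The numbers in the library labels fall into 3 ranges with equal numbers of NEO and SENS libraries. Within them the difference was 1893 CPM (1 library per group), 1977 CPM (3 per group) and 739.7 CPM (2 per group).

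Cd2 and Cd52, summed, overlapped between the groups. Their sum ran from 359 to 3171 CPM in NEO (median 1701) and from 0 to 2024 CPM in SENS (median 1332). The mean was 1682 ± 1028 CPM across NEO against 1278 ± 754 CPM across SENS (SD, n = 6 each), and the difference of −403 CPM was smaller than either SD. Within the label ranges it was −782, −300.4 and −369 CPM. It was −106 CPM without NEO 4, the library with the highest sum, −148 CPM without SENS 1, −264 CPM without NEO 3 and −668 CPM without NEO 2. With Ptprc added, the 3 genes summed to 2151 ± 1194 CPM among NEO and 2776 ± 1486 CPM among SENS libraries, so the sign of the difference (625.4 CPM) turned with the inclusion of Ptprc. Without SENS 5, which held 45 of the 107 SENS reads of Ptprc, that difference was 217 CPM, and it was 311 CPM without SENS 3, 321 CPM without NEO 2 and 352 CPM without NEO 1.

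**Figure D2:**
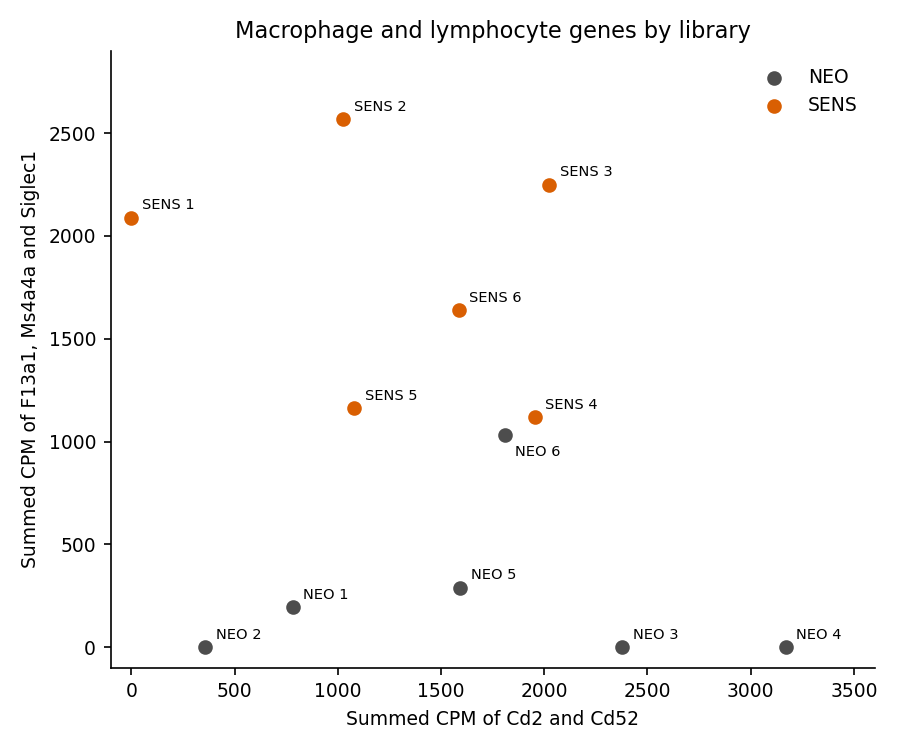
Summed CPM of F13a1, Ms4a4a and Siglec1 (y axis) against summed CPM of Cd2 and Cd52 (x axis), 1 point per library. The 6 SENS libraries lie at 1117 CPM or more on the y axis and the 6 NEO libraries at 1033 CPM or less, while both groups spread over the x axis.

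A macrophage gene was above 0 in 9 of 12 libraries, and Cd2 or Cd52 in 11. With such wide presence the 2 kinds could not meet in fewer than 8 libraries. The count of meetings therefore does not show a relation between them. At least 1 of F13a1, Ms4a4a and Siglec1 and at least 1 of Cd2 and Cd52 were above 0 in 8 of 12 libraries, 3 NEO and 5 SENS. Cd2 or Cd52 occurred without a macrophage gene in 3 libraries (NEO 2, NEO 3 and NEO 4). A macrophage gene occurred without Cd2 or Cd52 in 1, SENS 1, which had 18 reads of F13a1 and Ms4a4a. The macrophage share of the summed CPM of these 5 genes was 0% in NEO 2, NEO 3 and NEO 4, 36.4% in both NEO 6 and SENS 4, 71.4% in SENS 2 and 100% in SENS 1. The counts were the same when at least 2 reads were asked for, since none of the 6 genes had a single read in any library.

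Within each kind, the genes met unevenly. Cd2 and Cd52 were both above 0 in 10 libraries, Cd52 alone in SENS 6 and neither in SENS 1. F13a1 and Ms4a4a were both above 0 in 5 libraries, all SENS, with F13a1 alone in 3, Ms4a4a alone in NEO 5 and neither in 3. Ptprc, which macrophages and lymphocytes both make, was at 0 in 3 libraries that held other genes of the set. NEO 1 had 10 reads of the others, NEO 3 had 17, and SENS 6 had 59, of F13a1, Ms4a4a and Cd52. For SENS 6, with 18299 reads, a count of 0 still allows up to 164 CPM of Ptprc. All 6 genes were above 0 only in SENS 2 and SENS 3. Spearman's rho between the genes over the 12 libraries lay between −0.56 and 0.56 for the 15 pairs, given as a description of sparse counts from libraries that differ in depth.

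**Figure D3:**
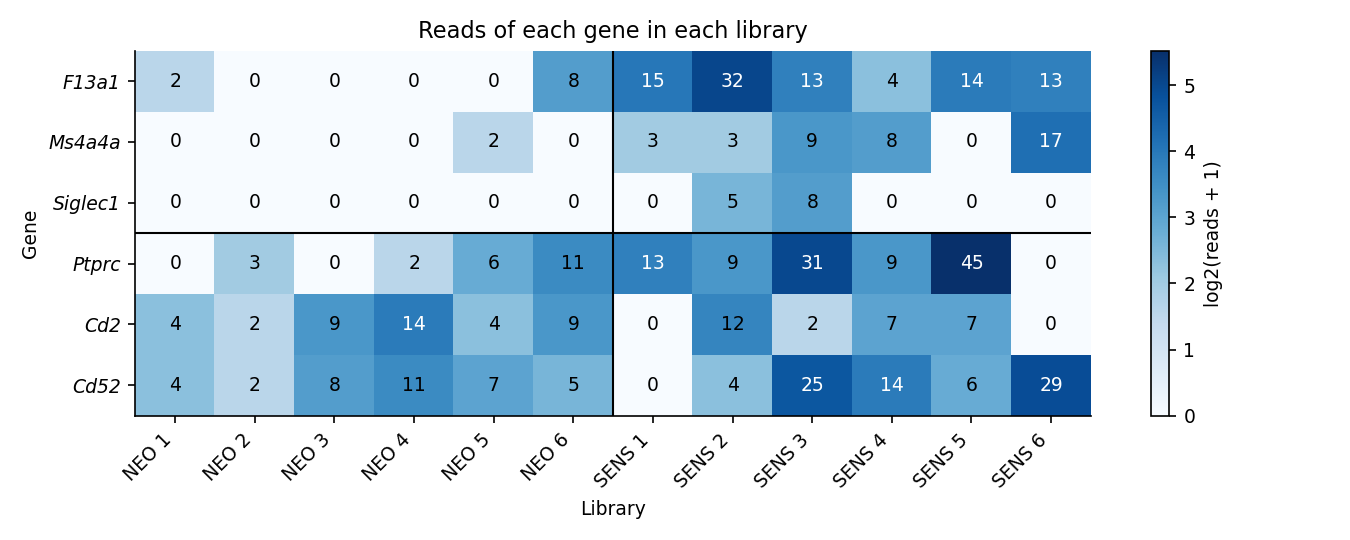
Reads of each of the 6 genes (rows, macrophage genes above the line) in each of the 12 libraries (columns, NEO left of the line), with darker cells for more reads on a log2(reads + 1) scale. F13a1 is above 0 in every SENS column, and Ptprc is at 0 in SENS 6, where Cd52 has its highest count of 29.

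The genes whose levels ran most like each of these genes were sought among 1861 others above 0 in at least 6 libraries, by Spearman's rho over the 12 libraries. Each is the highest of many comparisons and carries no test. F13a1 was closest to Ssc5d, which encodes a soluble scavenger receptor (rho 0.92), with 16 reads in NEO and 93 in SENS, and to the histone gene H4f16 (rho 0.83, 2 and 15 reads). Ptprc was closest to the noncoding gene Gm5115 (rho 0.83) and to Bcl2a1b, a survival gene of the BCL2 family made in blood cells (rho 0.82, 14 and 45 reads), and both carried fractional reads. Ms4a4a was closest to the noncoding genes A930003A15Rik (rho 0.91) and 4930583K01Rik (rho 0.86). Cd2 was closest to Trim29 (rho 0.89, 42 and 50 reads) and to the vomeronasal receptor gene Vmn2r6 (rho 0.87), whose values are mostly fractions of a read and add to 2 and 1 reads, and Cd52 to the noncoding gene Gm15997 (rho 0.82) and to Ifitm6, an interferon-inducible membrane protein gene (rho 0.80). None of the 6 genes was among the 2 closest of another, and Siglec1, above 0 in only 2 libraries, was not compared.

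The rule for the 6 genes did not use the values of other border macrophage genes. This list was still made with earlier results of these data known, so its values are not independent support. The table held 26 of 37 further listed genes, and 25 were tested. Limma called 0 of them at an adjusted p under 0.05, and 0 had an unadjusted p under 0.05. The log2 difference was above 0 for 20 of 25 (80%) with a median of 1.21, beside 57% and 0.39 over all genes. Over the other settings tried, the share above 0 lay between 64% (without NEO 4) and 87.5%. The median was 0.63 without SENS 2 and 0.30 with a pseudocount of 100 CPM. The summed level of the 26 genes ran from 2244 to 5593 CPM in NEO (mean 3927 ± 1269, SD, n = 6) and from 3156 to 11514 CPM in SENS (6578 ± 3155), so the groups overlapped. SENS 2 was highest in this sum, as in that of F13a1, Ms4a4a and Siglec1, and NEO 2 was lowest. Without SENS 2 the difference between the mean sums went from 2651 to 1664 CPM.

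The 4 genes of this list with the most CPM were Cd163, Cbr2, Ms4a6b and Clec4a3. Cd163, the haemoglobin scavenger receptor of border macrophages, was above 0 in all 12 libraries, with 555 ± 314 CPM (NEO) and 862 ± 371 CPM (SENS) (SD, n = 6 each). Its log2 difference was 0.81 (SE 0.81, limma adjusted p = 0.745). Clec4a3, a C-type lectin receptor, had 342 ± 290 and 535 ± 757 CPM, with SENS 4 holding 21 of 34 SENS reads. Cbr2, a carbonyl reductase, had 365 ± 850 and 626 ± 744 CPM, and Ms4a6b, a relative of Ms4a4a, had 372 ± 381 and 602 ± 439 CPM. Both of these carried fractional reads, so their values are uncertain where related copies share reads. Among the MS4A family as a whole, 10 of 12 tested relatives of Ms4a4a had a log2 difference above 0 (median 1.15). Over all genes it was 57%, with a median of 0.39. Limma called 0 of the 12 (0 at an unadjusted p under 0.05). Their share above 0 was 66.7% without NEO 1 or NEO 3, and their median 0.23 with a pseudocount of 100 CPM. Ms4a6b, Ms4a6c and Ms4a6d are also border macrophage genes of the list above, so this count partly repeats that of the list. Ms4a6c had 266 ± 271 CPM across NEO against 532 ± 478 CPM across SENS, while Ms4a6d had 291 ± 238 and 57.8 ± 89.9 CPM. Both, and Ms4a4b with 148 ± 233 and 411 ± 678 CPM, carried fractional reads.

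Of the 4 Siglec relatives of Siglec1 tested, 2 had a log2 difference above 0 and 2 below, and 4 were below without NEO 1, NEO 4 or SENS 5. Siglecf, a receptor of eosinophils and some macrophages, had 970 ± 1024 CPM among NEO and 220 ± 293 CPM among SENS libraries, and Siglece, an inhibitory receptor of myeloid cells, had 470.4 ± 520.2 and 184 ± 162 CPM (SD, n = 6 each). Siglec15 and the B cell receptor gene Cd22 had 142 ± 221 against 241 ± 373 CPM and 72.5 ± 177 against 179.9 ± 441 CPM. Limma called 0 of these 4, with 0 at an unadjusted p under 0.05. Among the transglutaminases related to F13a1, Tgm4, the prostate enzyme, had 483 ± 306 CPM (NEO) and 62.1 ± 152 CPM (SENS) (log2 difference −6.15, unadjusted p = 0.0263, limma adjusted p = 0.745). Tgm6, Tgm3 and Tgm1 had mean levels that differed by less than their SDs, with 352 ± 672 against 418 ± 518, 342 ± 363 against 399 ± 441 and 178 ± 393 against 184 ± 292 CPM. Limma called 0 of the 6 tested in this family.

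T and NK lymphocyte genes other than Cd2 and Cd52 were numerous in the table, 54 of 79 listed. Of 50 tested, 27 had a log2 difference above 0 and 23 below, with a median of 0.17. The median was below 0 without NEO 1 (−0.030), NEO 3 or NEO 6 (−0.066 each), NEO 4 (−0.10) or SENS 2 (−0.11), and reached 1.17 without NEO 5. Limma called 0, and 4 had an unadjusted p under 0.05. Btla, an inhibitory receptor of lymphocytes and one of these, had 1241 ± 1257 CPM across NEO against 303 ± 509 CPM across SENS (SD, n = 6 each). It was above 0 in 5 NEO and 2 SENS libraries. Il21r, the interleukin 21 receptor, stood the other way with 384 ± 511 CPM among NEO and 1026 ± 857 CPM among SENS libraries, with SENS 6 holding 46 of 87 SENS reads. Cd6, a surface receptor of T cells, had 0 NEO reads and 34 SENS reads. Btla, Il21r and Cd6 each had a limma adjusted p = 0.745. Klrg1, an inhibitory receptor of NK and T cells, had 1169 ± 1173 and 351 ± 482 CPM. The summed level of the 54 genes was 9114 ± 2226 CPM among NEO and 8365 ± 3573 CPM among SENS libraries. SENS 1, which had no read of Cd2 or Cd52, was the lowest of the 12 libraries in this sum at 4064 CPM, and SENS 4 was the highest at 14061 CPM.

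In the family of Cd2, Cd48 encodes the ligand of CD2 and had 578.5 ± 525 CPM (NEO) and 521 ± 449.8 CPM (SENS) (SD, n = 6 each). Slamf1, a related receptor of lymphocytes, had 1269 ± 768 and 663 ± 607 CPM, and Slamf6, another, had 306 ± 281 and 109 ± 266 CPM. Slamf9 had 242 ± 465 and 265 ± 239 CPM. Of the 8 relatives tested, 4 had a log2 difference above 0 and 4 below, limma called 0, and 0 had an unadjusted p under 0.05. Among general leukocyte genes related to Ptprc by their use, Ikzf1 and Ikzf3, transcription factors of blood cells, had 610.5 ± 700.6 against 798 ± 424 CPM and 962 ± 432 against 978 ± 768 CPM. Ikzf3 had a log2 difference of −1.50 although its means were close. Arhgap30, a GTPase-activating protein gene of blood cells, had 595 ± 561 and 425 ± 668 CPM. Of 12 general leukocyte genes tested, 7 had a log2 difference above 0 (median 0.40, and between 0.019 and 0.64 with single libraries left out) and limma called 0 (0 at an unadjusted p under 0.05). The receptor phosphatases related to Ptprc had Ptprq at 462 ± 696 and 865 ± 1535 CPM, with 71 of 86 SENS reads in SENS 6, and Ptprh at 189 ± 304.5 and 346 ± 302 CPM. Ptprq had a log2 difference of −0.81 despite its higher mean in SENS. Limma called 0 of these 2, and Ptprv had no read in any library.

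Of 29 B cell genes tested, 17 had a log2 difference above 0 (median 0.60), limma called 0 and 0 had an unadjusted p under 0.05. Without NEO 1 or NEO 6 it was 14 of 29 with a median of −0.074, and without NEO 5 it was 21 of 29 with a median of 1.21. Tnfrsf13c, the receptor for the B cell survival factor BAFF, had 799 ± 759 CPM across NEO against 1177 ± 948 CPM across SENS, and carried fractional reads. Jchain, the joining chain of secreted antibodies, had 1294 ± 1423 and 584 ± 525.6 CPM (SD, n = 6 each). Ciita, the activator of MHC class II genes, had 668 ± 465.8 and 422 ± 368 CPM, and the kinase gene Btk had 534 ± 551 and 477 ± 344 CPM. Jchain and Btk had lower means in SENS but log2 differences above 0 (0.60 and 1.37), so both are among the 17. Of 22 monocyte and neutrophil genes tested, 12 had a log2 difference above 0 (median 0.27) and limma called 0 (0 at an unadjusted p under 0.05). The median was −0.24 without NEO 1 or NEO 6 and −0.29 without NEO 4. S100a8, a calcium-binding protein of neutrophils, had 463 ± 511 and 346 ± 345 CPM, yet a log2 difference of 0.86. Trem3 (346 ± 372 and 623 ± 1019 CPM), Fpr2 (122 ± 235 and 613 ± 927 CPM) and Itgax (143 ± 209 and 497 ± 755 CPM) each had most of their SENS reads in SENS 6, and Fpr2 and Itgax carried fractional reads. Trem3 had a log2 difference of −0.97 despite its higher mean in SENS. Of 11 dendritic and mast cell genes tested, 7 had a log2 difference above 0 (median 0.095, and between −0.82 without SENS 5 and 0.35 with single libraries left out) and limma called 0 (0 at an unadjusted p under 0.05). Batf3, a transcription factor of dendritic cells, was above 0 in all 12 libraries, with 385 ± 157 CPM for NEO and 1075 ± 801 CPM for SENS, where SENS 6 held 48 of 96 reads. Over the whole set of 146 leukocyte genes tested, 59.6% had a log2 difference above 0, limma called 0, and 4 (2.74%) had an unadjusted p under 0.05, beside 57%, 0 and 3.68% over all genes. Without NEO 4 the share above 0 was 49.7%.

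**Figure D4:**
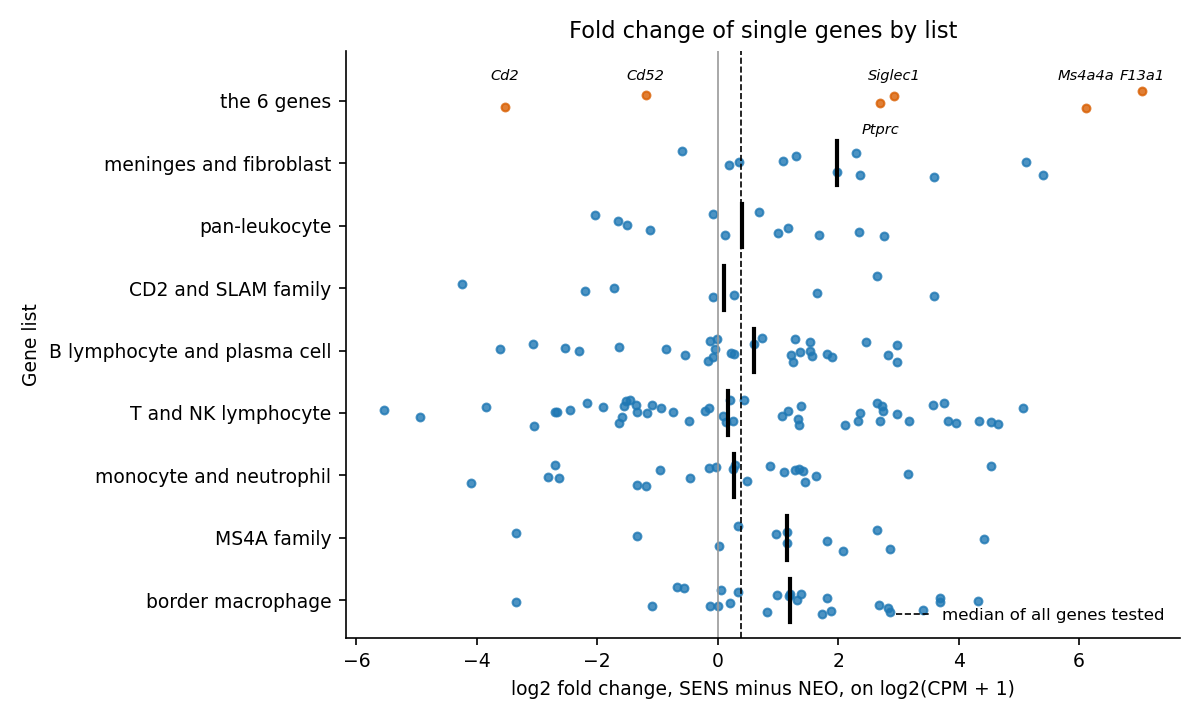
Log2 fold change of single genes (x axis, SENS minus NEO on log2(CPM + 1)) by gene list (y axis), with a bar at each list's median and a dashed line at the median of all genes tested, 0.39. The 25 further border macrophage genes lie mostly to the right of 0 and the 50 T and NK genes on both sides, and the 6 genes in the top row span −3.53 to 7.05.

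The 3 relations between the summed levels of further genes, none of the 6 among them and without genes shared by 2 of the lists, were computed over the 12 libraries. T and NK genes and B cell genes were high in the same libraries (Pearson r = 0.83, permutation p = 0.0013, adjusted p = 0.0039; Spearman's rho = 0.87, permutation p = 0.00055, adjusted p = 0.0016). The relation had r = 0.84 without SENS 1 and SENS 4, the 2 libraries farthest from the median, and r = 0.92 among the 6 libraries of the middle label range, while the other ranges held too few. Border macrophage genes showed no such relation with T and NK genes (r = −0.058, permutation p = 0.859, adjusted p = 0.859; rho = 0.063, permutation p = 0.852, adjusted p = 0.887). Without SENS 2 and SENS 6 that r was 0.54, and it was −0.33 in the middle range. With B cell genes they gave r = −0.076 (permutation p = 0.820, adjusted p = 0.859; rho = −0.049, permutation p = 0.887, adjusted p = 0.887), 0.32 without the same 2 libraries and −0.22 in the middle range. All 3 sums share the total of their library, so a high share of one list lowers the others.

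Genes of meninges and fibroblasts, tissue in which border macrophages live, had a higher summed mean in SENS. The table held 11 of 39 listed genes of meninges and fibroblasts, whose sum ran from 869 to 4132 CPM in NEO and from 2295 to 35954 CPM in SENS. SENS 2, the library with the most F13a1, held 81 reads of Zic1, 84 of Twist1 and 82 of Prrx2, transcription factor genes of the meninges and connective tissue. Zic1 had 143 ± 186 CPM among NEO and 1397 ± 1895 CPM among SENS libraries, and the fibril collagen gene Col14a1 had 388 ± 686 and 1075 ± 732 CPM (SD, n = 6 each; limma adjusted p = 0.745 for both). Twist1 had 312 ± 377 and 1183 ± 2140 CPM and Prrx2 had 627 ± 775 and 1197 ± 2035 CPM. The log2 difference of Twist1 was −0.59 despite its higher mean in SENS. Of the 11, 10 had a log2 difference above 0 (median 1.98), beside 57% (median 0.39) of all genes. Limma called 0, and 2 had an unadjusted p under 0.05, beside 3.68% of all genes. Without SENS 2, 8 of 11 were above 0 and the difference between the mean sums went from 7386 to 2248 CPM. The median was 0.66 without SENS 3. In the 5 other SENS libraries F13a1 lay between 372 and 1740 CPM and the meningeal sum between 2295 and 8472 CPM. SENS 1 had the most F13a1 of these, yet its sum of 3132 CPM was below NEO 1, NEO 4 and NEO 6. SENS 4 had the least F13a1 of these, with a sum of 7915 CPM. SENS 6 had the lowest sum, with less F13a1 than SENS 1, SENS 3 and SENS 5. In SENS 3 and SENS 4 the meningeal sum was above every NEO library too.

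Platelet genes are a further measure, since platelets make F13a1. Their sum, 9 of 20 further listed genes, ran from 127 to 1759 CPM in NEO and from 525 to 3989 CPM in SENS. Of the 9, 7 had a log2 difference above 0 (median 1.21), beside 57% (median 0.39) of all genes. Limma called 0, and 1 had an unadjusted p under 0.05. Pf4, a chemokine of platelets and border macrophages, had 247 ± 316 and 559.5 ± 695 CPM, with 29 of 47 SENS reads in SENS 2. Ppbp and Clec1b, both of platelets, had 11 and 11 reads and 11 and 4 reads in NEO and SENS. Red cell genes summed to 279 to 1783 CPM in NEO and 1160 to 2999 CPM in SENS, led by the transcription factor gene Klf1 with 495 ± 342 and 764 ± 510 CPM (SD, n = 6 each). Of the 12 red cell genes tested, 8 had a log2 difference above 0, and limma called 0 (0 at an unadjusted p under 0.05). The 3 endothelial genes measured had 26 NEO and 7 SENS reads in all, and 5 NEO reads without NEO 1, and limma called 0 of them (0 at an unadjusted p under 0.05). The part of meningeal tissue, blood and depth in the levels of the 6 genes was not tested.

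**Figure D5:**
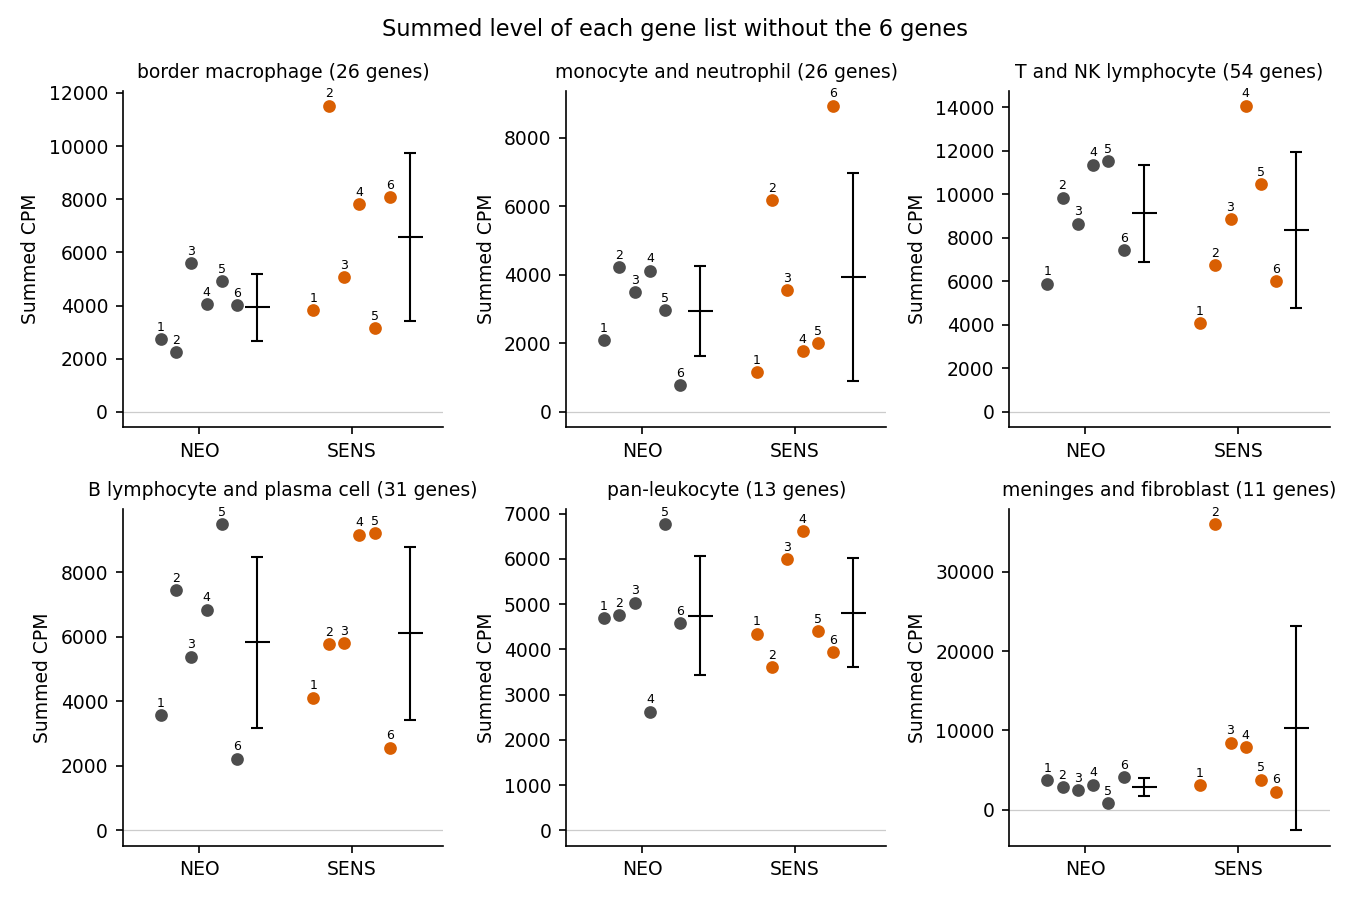
Summed CPM of 6 of the gene lists, without the 6 genes (y axis), in the 6 NEO and 6 SENS libraries, 1 point per library with its replicate number, beside the mean and SD of the group. SENS 2 is highest for border macrophage genes (11514 CPM) and for meninges and fibroblast genes (35954 CPM), while the groups overlap in all 6 panels.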

How the data were processed

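The authors deposited 1 table of CPM values, with 5764 genes and 12 library columns, all mapped to their samples by name. Per the submitters' processing notes, the tools were FastQC, HISAT2, featureCounts and edgeR and the builds GRCm38 and mm10, with no version or role. Gene filter, strand use and handling of shared reads are not stated. Each column sums to between 999936 and 1000000, so CPM are relative to the genes of this table. The most frequent value above 0 in a column was taken as 1 read. By that, 81.2% of values above 0 were whole reads (tolerance 0.005 reads), too few for a count model. The depth of whole libraries is unknown.

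Symbols were matched to RefSeq GRCm38.p6 (5728, 99.4%). SENS was compared with NEO by limma 3.58.1 in R 4.3.3 (variance trend, two-sided) on log2(CPM + 1), over genes averaging 1 CPM or more, with Benjamini-Hochberg adjustment over all genes and a threshold of 0.05. The fit was checked on simulated data. Correlations used 100000 permutations, two-sided. The members and lists were chosen with earlier results of these data known. Named genes are the 6, the 4 of each list with the highest mean CPM, and the 2 genes most alike each member by Spearman's rho; Cd6 was named after its values were seen. Some genes that this rule names are not reported here. Alternatives were other pseudocounts, filters, variance and scaling choices, blocks, and each library left out.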

Additional observations from a re-analysis of the deposited data

Results flagged for a closer look

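F13a1 in NEO 6 was far from the other NEO libraries, at 1033 CPM with the next at 195 CPM. Ms4a4a in NEO 5 was at 289.8 CPM while the other 5 NEO libraries were at 0. The summed CPM of F13a1, Ms4a4a and Siglec1 in NEO 6, 1033 CPM, was set apart from the next at 289.8 CPM. In each case the gap to the nearest library was more than 0.625 of the range of the group, in a screen of 27 groups of values that chance alone would flag in about 1 of 20 where values are normally distributed; that rate does not apply to groups mostly at 0, where a lone library above 0 always passes, as in NEO 5. The 3 rest on the same few reads, 8 of F13a1 and 2 of Ms4a4a.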

How the results depend on the processing

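Limma called 0 genes, and 0 leukocyte genes other than the 6, under all 20 alternatives, including each library left out (0 to 0). The genes at an unadjusted p under 0.05 numbered 189 at first, and between 132 (a mean of at least 100 CPM) and 249 (no variance trend) in the alternatives. The replicate numbers of the labels gave no sign of pairing. Same-numbered NEO and SENS libraries had deviations correlated between −0.032 and 0.082. Of the libraries, 1 of 6 NEO and 1 of 6 SENS correlated best with their own number. Counts this sparse may give low correlations in paired libraries too, so the check cannot exclude pairing. With the replicate block limma called 0 genes, with 176 at an unadjusted p under 0.05. Summed macrophage genes differed by 740 CPM within the third label range (2 libraries per group) and by 1551 CPM over all libraries; the cause was not tested. With each library left out the difference lay between 1398 and 1707 CPM, that of Ptprc, Cd2 and Cd52 between 217 and 880 CPM, and that of Cd2 and Cd52, a sum added after the data were seen, between −668 and −106 CPM. The log2 difference of Cd52 turned sign in 1 of 20 alternatives, without SENS 1 (0.43). Leaving out 1 library put F13a1 between 6.46 and 8.46, Ms4a4a between 5.63 and 7.61, Siglec1 between 1.67 (without SENS 3) and 3.51, Ptprc between 1.49 (without NEO 1) and 4.45 (without SENS 6), Cd2 between −4.27 and −2.36 and Cd52 between −1.74 and 0.43. Libraries in which macrophage and lymphocyte genes met numbered 8 with either limit of presence. With 54.6 to 145 CPM per read, a level of a few reads in a single library is not resolved.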
